A study of Capra hircus with 36 samples.

Results

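Skeletal muscle of goats from high and low altitude was compared across all mature miRNAs listed in the deposited counts. The samples were chosen by their tissue label alone, which gave 6 muscle samples of 36, with 3 from each population. The other 30 samples are heart, kidney, liver, lung and spleen of the same 6 goats. Small RNA was sequenced to profile miRNAs in goats adapted to thin air, with longissimus muscle as 1 of 6 tissues.

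The high-altitude group held 3 adult female Tibetan goats at 3000 m, and the low-altitude group 3 adult female Chuandong White goats at 600 m, all labelled as older than 3 years. Each sample came from a different goat. Breed and altitude change together here. The study also lists stocking or nomadism for the high-altitude goats and home rearing for the others, and a lower mean body weight at high altitude. These cannot be told apart, so "altitude" below names the population.

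A miRNA is cut from a hairpin precursor as a duplex, and its 5p or 3p arm is loaded into a silencing complex that represses mRNAs paired with the seed of the miRNA. Muscle fibres carry miRNAs found in few other tissues, some of them encoded in introns of myosin genes, which follow the fibre type. The imprinted DLK1-DIO3 domain holds a large miRNA cluster of placental mammals, expressed from the maternal chromosome and active in fetal and regenerating muscle.

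The files listed 1391 mature miRNAs under 909 precursor names, and 852 of them had at least 1 count in muscle, from 543 precursors. Total counts were 14407748, 12756196 and 12777656 in high-altitude replicates 1, 2 and 3, and 12234350, 13537937 and 12360095 in low-altitude replicates 1, 2 and 3. Values are listed in this order throughout. At these depths 3 counts, the limit that a count of 0 allows, equal 0.208 to 0.245 CPM (counts per 1000000 counts of the sample), which covers counting error only. Between 530 and 577 miRNAs had a count in a sample, and the 10 most abundant took 77.7% to 86.4% of the counts.

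The tissue label was checked with muscle-enriched miRNAs. The 12 arms of miR-1, miR-133a, miR-133b, miR-206, miR-208b, miR-499 and miR-486 summed to 497316, 537023 and 395707 CPM at high and 531889, 575646 and 526871 CPM at low altitude. This sum holds the equal counts of miR-133a-3p and miR-133b-5p under both names. In heart the same sum ran from 234264 to 430324 CPM, which overlaps muscle, and in the other tissues it reached 20577 CPM at most. The heart-restricted miR-208a arms summed to 1 to 2 CPM in muscle, to 2 to 5 CPM in high-altitude heart and to 57 to 207 CPM in low-altitude heart, so they set muscle apart from heart clearly at low altitude only. Liver markers summed to 91 to 287 CPM in muscle.

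Among the 6, 2 samples stood apart from their own group by distance. On the log2 CPM scale, over 249 miRNAs averaging 10 CPM or more in muscle, the root mean square distance from the other samples of the group was 2.16 for low-altitude replicate 3 and 2.1 for high-altitude replicate 2, against 1.26 to 1.88 for the other 4. Each of these 2 had 49 miRNAs at least 4-fold from the mean of the other samples of its group. By the median correlation with the other samples, low-altitude replicate 3 was the lowest, at 0.7. High-altitude replicate 2 did not stand apart by this measure, at 0.827, against 0.827 for high-altitude replicate 3 and 0.795 for low-altitude replicate 1. Low-altitude replicate 3 held 716546 counts of miR-1-3p and 95902 of miR-206-3p, both promoters of myoblast differentiation, where the other 5 samples held 13957 to 34964 and 585 to 13801. High-altitude replicate 2 held 16152 counts of miR-133a-5p against 408 to 1619 in the others, and 2754 of miR-320-3p against 71 to 378. Several results are also given without these samples, a comparison chosen after the values were seen. Whether populations overlap was judged on CPM, without the TMM scaling of edgeR that the fold changes carry. The TMM factors were 0.798, 1.29 and 0.858 at high and 1.02, 0.9 and 1.24 at low altitude. Narrow separations can thus depend on the scale.

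**Figure D1:**
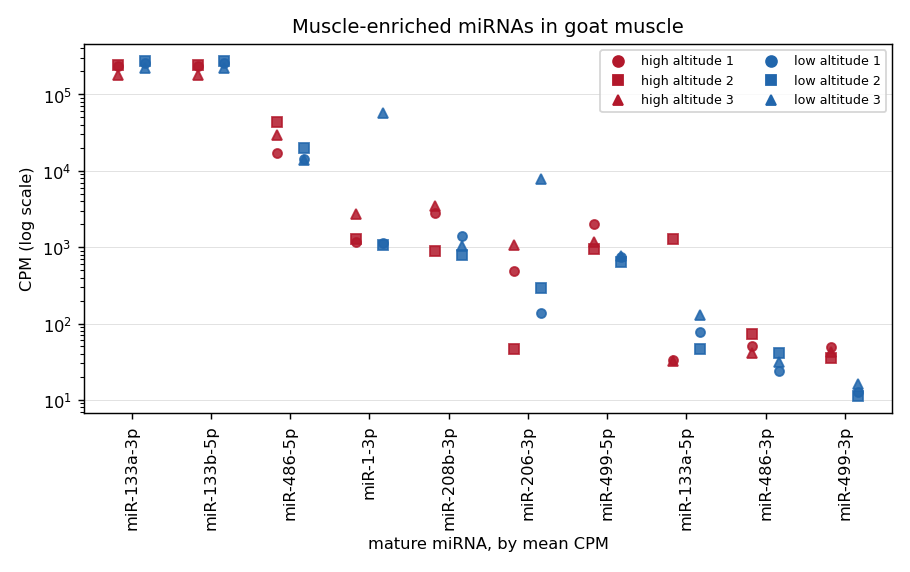
Muscle-enriched miRNAs that average 10 CPM or more over the 6 muscle samples. The vertical axis is CPM on a log scale, each symbol is 1 sample, red marks high and blue low altitude, and shapes mark replicates. Low-altitude replicate 3 is far above the others for miR-1-3p and miR-206-3p, high-altitude replicate 2 for miR-133a-5p, and the red symbols of miR-499-3p lie above all blue ones.

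With edgeR's quasi-likelihood test, 1 of 852 miRNAs was a DE miRNA (Benjamini-Hochberg adjusted p under 0.05 and absolute log2 fold change of at least 1.5), a background of 0.117%. It was miR-409-5p, an arm of the DLK1-DIO3 cluster, which fell at high altitude. Its counts were 21, 15 and 21 at high and 1580, 1550 and 1647 at low altitude, or 1.43 ± 0.235 against 126 ± 9.86 CPM (SD, n = 3). The groups were far apart, every sample was close to the others of its group, and the 2 samples that stood apart elsewhere did not do so here. The log2 fold change of high over low altitude was -6.28 (SE 0.56, edgeR adjusted p = 0.0109), and -6.11 (edgeR adjusted p = 0.0212) without both of those samples. Without high-altitude replicate 1 or 3, the log2 fold change was -6.41 or -6.46, but the edgeR adjusted p was 0.146 or 0.111, past the threshold. The same arm was lower at high altitude without overlap in 4 of the other 5 tissues, with log2 ratios of the mean CPM of -4.46 in heart, -4.78 in kidney, -5.52 in liver and -4.63 in spleen, while the populations overlapped in lung (0.26). The difference between muscle and the mean of the other 5 tissues did not pass its test (edgeR adjusted p = 0.366).

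No other miRNA came near the threshold, since the next lowest adjusted p was 0.413. Before adjustment, 86 miRNAs had a p under 0.05, with 53 lower (6.22% of all) and 33 higher (3.87%) at high altitude. The number of DE miRNAs depended on the tool, with 30 by DESeq2, 18 by edgeR's likelihood ratio test and 5 by its exact test, and a fit over all 36 samples called 34. It was 0 without high-altitude replicate 1 or 3, 3 without high-altitude replicate 2 and 5 without low-altitude replicate 2. The added calls were the let-7a arms without high-altitude replicate 2 and the arms of miR-199b and miR-199c without low-altitude replicate 2. Counts of these names alternate between samples as described below. On all 6 samples, DESeq2 and edgeR's likelihood ratio test also called let-7a-3p and both miR-199c arms, and the exact test called let-7a-3p. The median log2 fold change of all 852 was 0.22 with TMM scaling and 0.09 with the library totals alone, and it was -0.11 without high-altitude replicate 2 and -0.05 without high-altitude replicate 3.

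For the opposite arm of the hairpin the populations overlapped. Counts of miR-409-3p were 117, 317 and 160 at high and 204, 240 and 2223 at low altitude, with low-altitude replicate 3 the highest. Its log2 fold change was -2.04 (SE 0.94), and -0.32 without that sample. Summed over both arms, miR-409 had 138, 332 and 181 counts at high and 1784, 1790 and 3870 at low altitude, with no overlap. The log2 fold change of the sum was -3.43 (SE 0.55, edgeR adjusted p = 0.234). By DESeq2 and by edgeR's exact and likelihood ratio tests the sum was called. With arms summed, the test of muscle against the other tissues also called miR-409. The log2 ratio of the 5p to the 3p arm differed by -4.97 (SE 1.06) without passing the test of arm ratios (limma adjusted p = 0.168).

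The sequence of miR-409-5p is shown as the one DE miRNA of muscle, with that of miR-495-3p, another arm of the cluster described below. They are the study's mature sequences, written 5′ to 3′ with the seed, bases 2 to 8, in capitals, and their seeds differ.
miR-409-5p: aGGTTACCcgagcaactttgcat
miR-495-3p: aAACAAACatggtgcacttct

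**Figure D2:**
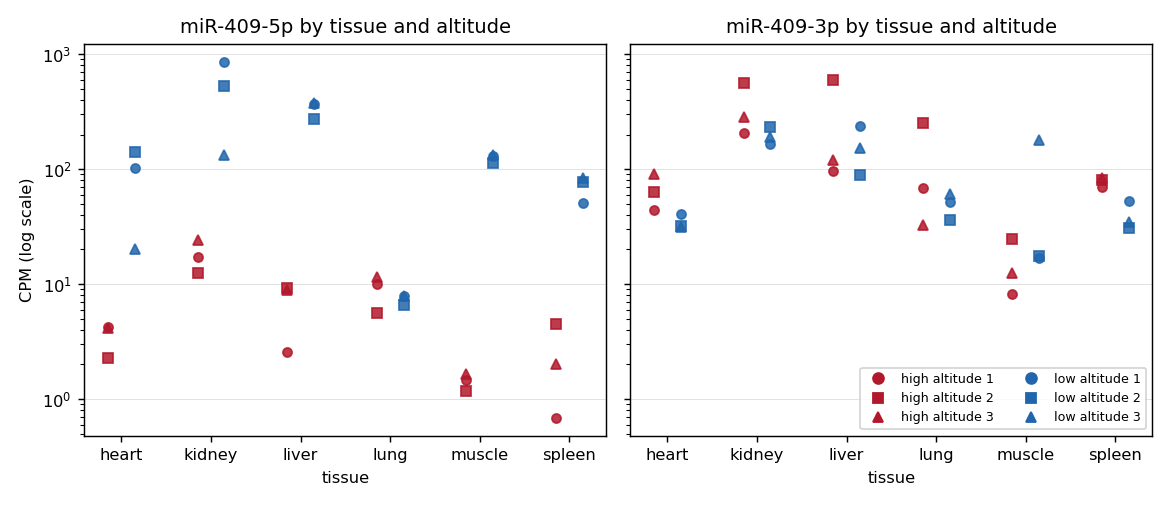
CPM of miR-409-5p and miR-409-3p on a log scale in the 6 tissues, with 1 symbol per sample, red for high and blue for low altitude. In muscle the 5p arm separates the populations by more than any spread within them (21, 15 and 21 against 1580, 1550 and 1647 counts), while the 3p arm overlaps.

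Many arms of the DLK1-DIO3 cluster were lower in high-altitude muscle. Of its 103 listed arms, 87 had a count in muscle, and in 33 of these (37.9%) all 3 high-altitude samples lay below all 3 low-altitude samples, against 72 of all 852 miRNAs (8.45%). The reverse was found for 1 arm (1.15%), against 45 of all (5.28%). At an unadjusted p under 0.05, 35 arms were lower and 1 higher, against 6.22% and 3.87% of all, and 12 were lower without low-altitude replicate 3. The median log2 fold change was -3.65, and -3.24 against 0.11 over all miRNAs when arms with only zeros in 1 population were set to the floor of 3 counts per library (14 cluster arms at this bound, 7 left out with both groups at the floor). The arms come from 1 locus, where 44 of 44 cluster genes named in the goat ARS1.2 gene table lie on the same chromosome, so they are not independent of each other. Bulk muscle counts cannot tell fewer cells of a type from less RNA per cell.

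The size of this difference, more than its direction, rested on low-altitude replicate 3. The arms summed to 1184, 3511 and 1451 CPM at high and 3664, 4826 and 72040 CPM at low altitude. The last sample was at least an order of magnitude above all others, and the remaining low-altitude samples were above every high-altitude sample by a small margin. Without low-altitude replicate 3, 34 of 79 arms (43%) did not overlap and were lower, against 12.6% of all miRNAs in the same comparison, and 1 arm (1.27%) was higher, against 9.39%. The median was then -1.30 against 0.30 over all, and 12 arms were lower at an unadjusted p under 0.05 (4.57% of all). Without high-altitude replicate 2, 54 of 85 arms (63.5%) were lower without overlap, against 20% of all, and 1 was higher, against 10.7%. Without both samples it was 55 of 76 (72.4%) against 26.5%, with 2 higher against 17.2%, a median of -2.31, and 27 arms lower at an unadjusted p under 0.05 (8.92% of all). What sets low-altitude replicate 3 apart was not tested.

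Among the abundant arms, miR-127-3p, which is antisense to the imprinted gene RTL1, had 9836, 11691 and 9197 counts at high and 20993, 31736 and 204599 at low altitude. The high-altitude samples were alike, and the low-altitude samples all lay above them. Its log2 fold change was -2.88 (SE 0.84), and -1.45 without low-altitude replicate 3. The arm miR-381-3p, the most abundant by its mean through low-altitude replicate 3 alone, had 480, 10852 and 809 counts against 4936, 7902 and 320732. Here high-altitude replicate 2 lay within the low-altitude range, so the groups overlapped, and the log2 fold change of -4.83 (SE 1.94) became -1.0 without low-altitude replicate 3. Counts of miR-411a-5p were 4452, 11907 and 5759 against 7910, 12230 and 194818, again with high-altitude replicate 2 among the low-altitude values.

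For miR-3958-3p the counts were 274, 1432 and 438 against 1698, 2470 and 28936, with a log2 fold change of -3.89 (SE 1.2) that was -1.77 without low-altitude replicate 3. For miR-493-5p they were 31, 178 and 37 against 503, 445 and 4113, with -4.35 (SE 1.11) and -2.77. In both, high-altitude replicate 2 was the highest of its group and low-altitude replicate 3 the highest of all. For miR-412-5p they were 11, 21 and 17 against 67, 89 and 406, with -3.37 (SE 0.83) and, without low-altitude replicate 3, -2.36. For miR-495-3p they were 15, 30 and 33 against 76, 105 and 1806, with -4.43 (SE 1.32) and -1.89. The low-altitude values of both arms lay above every high-altitude value, also without the sample that stood apart. No count of miR-665-3p was found at high altitude, against 22, 16 and 328 at low altitude, which is at least 43.5-fold lower, or 6.59-fold without low-altitude replicate 3. Counts of miR-379-5p were 193, 4 and 219 against 151, 133 and 11855, and its log2 fold change of -4.43 turned to 0.03 without low-altitude replicate 3.

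Other tools called more arms of the cluster. By DESeq2, 15 miRNAs were lower (1.76% of all) and 15 higher, and 8 of the 30 were cluster arms. The fit over all 36 samples called 30 lower (2.16% of 1391) and 4 higher, and 28 of the 34 were cluster arms.

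**Figure D3:**
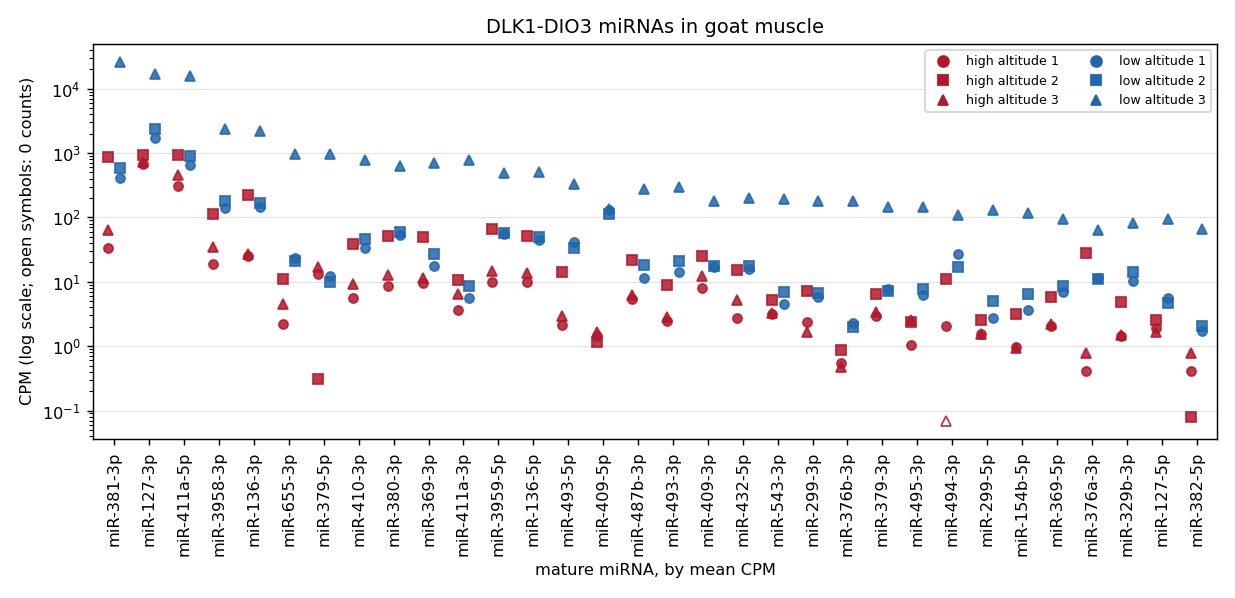
Arms of the DLK1-DIO3 cluster with a mean of at least 10 CPM in muscle, ordered by mean CPM. The vertical axis is CPM on a log scale, each symbol is 1 sample (red high, blue low altitude, shapes for replicates), and open symbols stand for 0 counts. The arms were chosen by a mean that low-altitude replicate 3 can carry, and this sample is the highest for all 32 drawn, for 19 of the 19 that reach 10 CPM over the other 5 samples, and for 79 of all 87 with a count, against 25.2% of all miRNAs. For miR-409-5p the blue symbols nearly coincide.

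Whether the altitude difference of muscle differed from that of the same goats' other tissues was tested with the goat as a block. Of 1391 miRNAs, 16 differed from the mean of the other 5 tissues (edgeR adjusted p under 0.05), of which 15 were lower in muscle (1.08% of all). All 15 were cluster arms, of 103 tested (14.6%), and the other was miR-184-5p. The cluster sums were 7278, 4235 and 7153 CPM at high and 4619, 6022 and 4092 CPM at low altitude in heart, and 3546, 7542 and 5430 against 4857, 5080 and 4752 CPM in spleen. They were 4726, 9747 and 5972 against 15257, 8469 and 15323 CPM in liver, 16842, 26497 and 17797 against 17237, 18550 and 28313 CPM in kidney, and 8353, 17771 and 6995 against 5059, 7244 and 5985 CPM in lung. The populations overlapped in these 5 tissues, but in liver high-altitude replicates 1 and 3 were below all low-altitude samples, and miR-127-3p was lower there without overlap (2616, 3235 and 3729 against 10709, 5335 and 10903 CPM). The sum of low-altitude replicate 3 was the highest of its group in kidney and liver as well, but by less than 2-fold over the next. The count of 16 rested on single samples, since it was 1 without low-altitude replicate 3 (miR-3958-3p), 0 without high-altitude replicate 1 or 3, 25 without low-altitude replicate 1, 27 without low-altitude replicate 2, and 3 without both samples that stood apart. Against heart alone, the other striated muscle, edgeR's quasi-likelihood test called 0, with 82 at an unadjusted p under 0.05 and 11 by the likelihood ratio test. Without low-altitude replicate 1 or 2 it called 19 in either case.

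**Figure D4:**
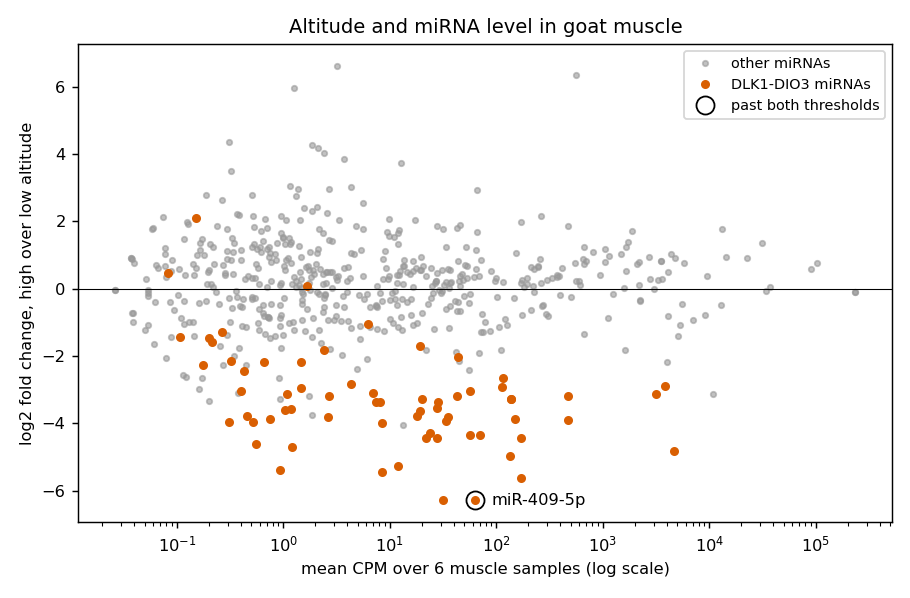
Log2 fold change of high over low altitude against the mean CPM (log scale) of each miRNA in muscle, with DLK1-DIO3 arms in orange and the DE miRNA circled. miRNAs with only zeros in 1 population are left out. Most orange points lie below 0, with a median of -3.65 over all 87 arms.

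The summed level of muscle-enriched miRNAs, 395707 to 575646 CPM, overlapped between the populations. The most abundant, miR-133a-3p, which promotes myoblast proliferation, had 3413386, 3122251 and 2287145 counts at high and 3144400, 3740411 and 2752734 at low altitude. The populations overlapped, and the log2 fold change was -0.09 (SE 0.38), turning to 0.04 without high-altitude replicate 2 and 0.10 without low-altitude replicate 2. The listed miR-133b-5p carries equal counts in every sample, so reads of the 2 names cannot be separated. Counts of miR-486-5p were 243537, 548127 and 372591 against 175004, 273012 and 169804, with overlap and a log2 fold change of 0.90 (SE 0.42). For miR-1-3p they were 17083, 16272 and 34964 against 13957, 14491 and 716546. Apart from low-altitude replicate 3, every high-altitude sample was above the low-altitude samples, and the log2 fold change of -3.12 (SE 1.53) turned to 0.65 without it. In heart of the same goats, miR-1-3p had 108261, 5047 and 26293 against 10826, 11396 and 266872 counts, again with the highest value in low-altitude replicate 3. For miR-206-3p, enriched in regenerating fibres, the muscle counts were 6965, 585 and 13801 against 1675, 3986 and 95902, and the samples of the populations were mixed.

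Of the 4 arms encoded in introns of slow myosin genes, 2 were higher at high altitude without overlap, against 5.28% of all miRNAs, and 0 passed the thresholds of edgeR's quasi-likelihood test. Counts of miR-499-3p, from MYH7B, were 714, 446 and 546 at high and 155, 152 and 198 at low altitude, without overlap, and the log2 fold change was 1.87 (SE 0.48). Its 5p arm, which represses regulators of the fast fibre program, had 28897, 12130 and 15036 counts against 9113, 8549 and 9588, also without overlap, and a log2 fold change of 1.17 (SE 0.51). The arm miR-208b-3p, from the slow myosin gene MYH7, had 40009, 11202 and 44013 counts against 17336, 10840 and 12661. Here high-altitude replicate 2 fell among the low-altitude samples, and the log2 fold change was 1.39 (SE 0.68). The 4 arms of both miRNAs summed to 4834, 1865 and 4666 CPM at high and 2175, 1444 and 1817 CPM at low altitude. All 4 had log2 fold changes above 0, with a median of 1.45 against 0.22 over all. Without high-altitude replicate 2, 4 of 4 were higher without overlap, against 10.7% of all. In edgeR's quasi-likelihood test 1 of 4 had an unadjusted p under 0.05 (at that p 3.87% of all miRNAs were higher), while DESeq2 called miR-499-3p and edgeR's exact and likelihood ratio tests called 0. In heart, miR-499-3p had 1140, 817 and 1030 against 1126, 2142 and 1606 counts, where high-altitude samples were not the higher ones.

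Among miRNAs of myoblasts, growth and wasting, the populations were separated for several arms that edgeR's quasi-likelihood test did not call on the 6 muscle samples. Of the arms named here and in the next paragraph, DESeq2 called miR-424-5p, miR-628-5p, miR-27b-5p, miR-222-3p, miR-504-5p and miR-191-3p, and the fit over all 36 samples called miR-424-5p and miR-27b-5p. The arm miR-424-5p, which slows the myoblast cell cycle, had 136, 514 and 72 counts at high and 1118, 1038 and 1355 at low altitude. All high-altitude samples were lower, with high-altitude replicate 2 the nearest, and the log2 fold change was -2.41 (SE 0.66), or -3.25 without that sample. The decrease of miR-424-5p was not particular to muscle. Its log2 ratio of the mean CPM was -2.30 in muscle, -2.87 in lung, -2.55 in liver, -1.28 in kidney, -0.88 in heart and -0.24 in spleen. Its opposite arm miR-424-3p overlapped, with 28, 178 and 11 against 66, 80 and 139 counts and a log2 fold change of -0.55 (SE 0.92). Hairpins of the same cluster were chosen after their values were seen, and their arms summed per precursor gave 152, 438 and 81 against 716, 1183 and 856 counts for miR-450 and 159, 300 and 89 against 406, 500 and 801 for miR-542. Both precursors were lower at high altitude without overlap, by log2 fold changes of -2.01 (SE 0.69) and -1.56 (SE 0.60). The log2 ratio of the mean CPM of miR-542-3p was -1.89 in muscle, -3.35 in lung, -1.42 in liver, -0.28 in kidney, 0.72 in heart and 1.79 in spleen. A further hairpin, miR-450b, had 327, 3151 and 192 against 1719, 2501 and 1728 counts, with overlap through high-altitude replicate 2.

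Other separated arms were higher at high altitude. Counts of miR-628-5p were 343, 319 and 415 against 94, 105 and 79, with a log2 fold change of 2.03 (SE 0.50). For miR-27b-5p, whose opposite arm represses Pax3, they were 987, 772 and 860 against 253, 329 and 195, with 1.81 (SE 0.50). For miR-222-3p, a repressor of the cell cycle inhibitor p27, they were 340, 1137 and 446 against 192, 160 and 186, with 1.77 (SE 0.49). The samples within each population were alike for these arms, apart from high-altitude replicate 2 for miR-222-3p. The arm miR-504-5p, which targets p53, had 1181, 1029 and 617 counts against 347, 258 and 165 (log2 fold change 1.89, SE 0.54), and miR-191-3p had 292, 241 and 192 against 47, 80 and 106 (1.73, SE 0.52). Every high-altitude value of both was above every low-altitude value. For miR-628-5p the mean CPM was higher at high altitude in the other tissues as well. Its log2 ratio was 1.83 in muscle, 1.32 in heart, 1.04 in liver, 0.78 in spleen, 0.70 in kidney and 0.63 in lung.

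Over all 852 miRNAs, 5.28% were higher and 8.45% lower without overlap, with a median log2 fold change of 0.22, and among the 249 averaging 10 CPM or more it was 10.4% and 16.9%. In the myoblast and satellite cell list, 6 of 32 tested arms were higher (18.8%) and 2 lower (6.25%) without overlap, with a median of 0.52. In the list for muscle wasting and growth control it was 3 higher (15%) and 1 lower (5%) of 20, with a median of -0.33. For fuel metabolism and mitochondria it was 5 higher (13.2%) and 2 lower (5.26%) of 38 with a median of 0.39. For hypoxia-linked miRNAs it was 3 higher (8.11%) and 4 lower (10.8%) of 37 with 0.30, and for blood vessel growth 4 higher and 4 lower (8.51% each) of 47 with 0.26. Some medians turned with a sample, since that for wasting was 0.26 without low-altitude replicate 3 and that for vessels -0.19 without high-altitude replicate 2. The medians for myoblasts and hypoxia kept their sign, at 0.04 and 0.06 without high-altitude replicate 2, where the median of all miRNAs was -0.11. Whether a list's share differed from that of all miRNAs was not tested, and no member of these lists passed the thresholds of edgeR's quasi-likelihood test. Leaving out a sample can only add miRNAs without overlap to those still tested, and without high-altitude replicate 2 there were 9 higher and 11 lower of 32 for the myoblast list, 5 and 6 of 20 for wasting, 9 and 8 of 33 for hypoxia, 10 and 11 of 37 for metabolism and 9 and 15 of 45 for vessels (10.7% and 20% of all miRNAs). Without low-altitude replicate 3 these were 8 and 4 of 32, 4 and 4 of 20, 6 and 5 of 37, 9 and 2 of 38, and 7 and 5 of 47 (9.39% and 12.6% of all). The hypoxia-induced miR-210-3p had 83 counts in high-altitude replicate 2 and 0 in the other 5 samples, so no difference between the populations could be read from it. The metabolic miR-378-3p, from an intron of PPARGC1B, had 418542, 556152 and 313136 counts against 384424, 483576 and 518904, with overlap, and its log2 fold change of -0.08 (SE 0.32) turned to 0.01 without high-altitude replicate 3 and 0.02 without low-altitude replicate 2.

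Several abundant miRNAs lay outside these themes or in more than 1 list. Counts of miR-100-5p, a repressor of mTOR, were 35143, 11957 and 54941 at high and 123270, 135625 and 36373 at low altitude. Low-altitude replicate 3 was among the high-altitude samples here, and the log2 fold change was -1.41 (SE 0.84), with -2.04 without high-altitude replicate 3 and -0.95 without high-altitude replicate 2. The growth regulator miR-125b-5p also had low-altitude replicate 3 among the high-altitude samples, with 94503, 70049 and 89883 against 183499, 196774 and 74006 counts and -0.79 (SE 0.55). For miR-26a-5p, which favours muscle differentiation, the counts were 1623429, 965262 and 1567385 against 1044272, 1163478 and 750146, with overlap through high-altitude replicate 2. Collagen-repressing miR-29a-3p had 49900, 40963 and 46388 counts against 25773, 28994 and 20715. The groups did not overlap and the log2 fold change was 0.93 (SE 0.41). Counts of miR-30e-5p went the other way, with 139539, 134596 and 127004 against 213205, 169184 and 214992 and a log2 fold change of -0.50 (SE 0.34). The developmental regulator miR-10b-5p had 1736158, 533776 and 2603854 against 1360723, 1024369 and 807547 counts, with high-altitude replicate 2 below all low-altitude samples.

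Markers of other cell types differed in how far the populations overlapped. Smooth muscle and pericyte arms, led by miR-143-3p, summed to 55425, 23134 and 51272 CPM at high and 17681, 21418 and 22452 CPM at low altitude. Counts of miR-143-3p, which favours the contractile state of smooth muscle, were 793210, 290978 and 649396 against 206618, 282333 and 270768, so high-altitude replicates 1 and 3 were far above the rest and replicate 2 just above the low-altitude samples. Its log2 fold change was 1.34 (SE 0.55), and it was the 1 arm of 6 that was higher without overlap (16.7%, against 5.28% of all), while 2 others were lower (33.3%, against 8.45%). With the CPM of each sample divided by its TMM factor, the populations overlapped for all of these arms. The endothelial miR-126 arms summed to 6206 to 11603 CPM, leukocyte arms to 1224 to 2436, fibroblast arms to 10235 to 15582, and erythroid arms to 0 to 55, all with overlapping populations. The fibroblast sum holds miR-199a-3p beside miR-199b-3p or miR-199c-3p, whose nearly equal counts are described below, so it may count reads under more than 1 name. Neuronal arms, almost all miR-128-3p, which muscle also expresses, summed to 10084 CPM in high-altitude replicate 2 and 2140 to 3809 in the others. Arms of the kidney and epithelium list summed to 134863, 49802 and 220902 against 120717, 83464 and 74041 CPM. Almost all of this was miR-10b-5p, miR-10a-5p and miR-30a-5p, which are abundant in every muscle sample, so the sum does not measure epithelial cells. In the same list miR-200a-3p stood at 3.4 to 19.3 CPM and miR-429-3p at 0.49 to 6.03 CPM. Leukocyte miR-223-3p was separated, with 142, 367 and 190 against 80, 48 and 97 counts, 1 of 13 leukocyte arms (7.69%, against 5.28% of all). In the epithelial list 3 of 22 arms (13.6%) were higher without overlap, miR-200a-3p with 125, 246 and 181 against 46, 46 and 86 counts, miR-141-3p with 64, 119 and 110 against 45, 15 and 21, and miR-429-3p with 19, 39 and 77 against 6, 11 and 10, and 1 was lower (4.55%, against 8.45%). The lower epithelial arm was miR-10b-3p, for which the populations overlapped once CPM were divided by the TMM factors. DESeq2 called miR-223-3p and miR-200a-3p, and edgeR's quasi-likelihood test called neither. The part of other cells in the differences between populations was not tested.

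The let-7 family, which restrains proliferation, was led by let-7f-5p with 148598, 504861 and 140101 counts at high and 64776, 68315 and 87601 at low altitude. No samples overlapped, high-altitude replicate 2 was the highest, and the log2 fold change was 1.77 (SE 0.46), or 1.22 without that sample. The 15 family arms summed to 14642, 56255 and 16098 against 10337, 9275 and 13330 CPM, with 3 higher (20%, against 5.28% of all) and 0 lower without overlap. Without high-altitude replicate 2, 3 were higher (20%, against 10.7%) and 6 lower (40%, against 20%). These counts include let-7a-3p among the higher arms and, without high-altitude replicate 2, let-7a-5p among the lower. Counts of these names alternate between samples as described next. Without high-altitude replicate 2 the median moved from 0.58 to -0.02.

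For let-7a the arm name that held most counts differed between samples. Whether the same reads were counted under either name was not tested. Counts of let-7a-5p were 0, 113781 and 0 at high and 16403, 15250 and 22103 at low altitude, while those of let-7a-3p were 19638, 1556 and 23150 against 305, 158 and 170. Samples with no let-7a-5p had the high let-7a-3p counts. Summed, let-7a had 19638, 115337 and 23150 against 16708, 15408 and 22273 counts, with overlap and a log2 fold change of 1.56 (SE 0.67), or 0.41 without high-altitude replicate 2. The sequence printed by the study under let-7a-3p carries the seed by which the let-7 family is known, and that under miR-199c-3p is shown for the next group, with seeds in capitals.
let-7a-3p: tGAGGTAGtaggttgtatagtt
miR-199c-3p: aCAGTAGTctgcacattggtt

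A similar alternation of counts between names was seen in the miR-199 family. Counts of miR-199b-3p were 37301, 53075 and 26430 at high and 0, 32777 and 0 at low altitude, and those of miR-199c-3p were 0, 0 and 0 against 24207, 0 and 40378. Each sample held reads under 1 of the 2 names, and the sums of 37301, 53075 and 26430 against 24207, 32777 and 40378 overlapped. Counts of miR-199a-3p, 37434, 53268 and 26553 against 24306, 32891 and 40510, differed from these sums by less than 1% in each sample. In the same way, miR-107-3p and miR-107-5p summed to 3495, 3075 and 3079 against 2029, 2210 and 3418, where all 3075 counts of high-altitude replicate 2 were under the 5p name and all others under 3p. The 5p arms of miR-199b and miR-199c also stood under 1 name per sample. Their sums were 2239, 3681 and 1917 against 11179, 6088 and 3408. High-altitude replicate 2 lay above low-altitude replicate 3 there, so the populations overlapped. These sums were below the miR-199a-5p counts of 2875, 10173 and 2454 against 16059, 12980 and 6250 in each sample. All these pairs were chosen after their values were seen. Equal counts in every muscle sample were found for 11 groups of 22 miRNAs with at least 10 counts, and their levels are uncertain.

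The split of reads over the arms was compared for 127 precursors with at least 100 counts over both arms in each sample. The 5p share was lower at high altitude without overlap for 19 (15%) and higher for 5 (3.94%). With limma, 0 of 127 passed an adjusted p under 0.05, the lowest was 0.168, and 16 had an unadjusted p under 0.05. Without high-altitude replicate 2 there were 5 calls, and 20 without both samples that stood apart. For miR-126, the endothelial miRNA, the 5p arm had 65164, 42136 and 62686 counts against 29469, 33414 and 43382 and the 3p arm 33343, 47786 and 29721 against 46457, 56567 and 100030. In CPM the 3p arm had 2314, 3746 and 2326 against 3797, 4178 and 8093, without overlap, and the log2 ratio of 5p to 3p was higher by 1.49 (SE 0.46). For miR-106b the 5p arm overlapped, with 166, 207 and 161 against 207, 184 and 305 counts, while the 3p arm was higher at high altitude, with 1063, 1438 and 944 against 438, 552 and 604. The log2 ratio differed by -1.46 (SE 0.34). For miR-181a, which rises during myoblast differentiation, the 5p arm had 67370, 69734 and 44276 against 90946, 100490 and 172366 counts and the 3p arm 803, 449 and 567 against 337, 217 and 273, so the arms moved apart without overlap in either.

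With the arms summed, 0 of 543 precursors passed the thresholds of edgeR's quasi-likelihood test, 68 had an unadjusted p under 0.05, and DESeq2 called 14, the likelihood ratio test 13 and the exact test 4. The lowest adjusted p was the 0.234 of miR-409. Without low-altitude replicate 2 there were 3 calls, of which 2 were miR-199b and miR-199c with their alternating counts. There were 18 without both samples that stood apart. Without overlap, 47 precursors (8.66%) were lower and 35 (6.45%) higher at high altitude.

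Within a population, a count of 0 stood beside at least 100 for 47 of all 852 miRNAs (5.52%). An example is miR-30c-5p, which represses PAI-1, with 11700 counts in high-altitude replicate 3 and 0 in the other 5 samples.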

How the data were processed

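Small RNA of 36 goat samples was prepared with a TruSeq kit and sequenced on an Illumina HiSeq. Per the labels and the study's methods, the authors used CASAVA 1.8 and Bowtie, took exact matches only to the ARS1 genome, quantified with miRDeep2 against miRBase, and deposited whole-number counts per mature miRNA, not normalized. The lowest maximum of any listed miRNA was 3 counts. Names that occur under 2 precursors were kept apart.

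The 6 muscle samples (3 against 3, different goats) were fitted with edgeR 4.0.16 in R 4.3.3 (TMM, quasi-likelihood test, Benjamini-Hochberg adjustment over the 852 miRNAs with a count). Adjusted p values printed for miRNAs are from edgeR's quasi-likelihood test unless another test is named. Precursors were fitted alike on summed arms. Arm ratios, log2 of 5p over 3p with a pseudocount of 0.5, were tested with limma 3.58.1. Differences between tissues came from 1 edgeR fit over 36 samples with goat as a block. SEs are the absolute log2 fold change over the root of F. Python 3.11.15 with NumPy 2.4.6, SciPy 1.17.1, pandas 2.3.3 and matplotlib 3.10.9 did the rest. The fits were run on simulated counts with planted changes, without samples that stood apart or counts that alternated between names. This checked the code and does not show how the tests behave on these samples.

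Alternatives were DESeq2 1.42.0, edgeR's exact and likelihood ratio tests, RLE factors, library totals, the 10 most abundant left out of TMM, filterByExpr, a mean of at least 10 CPM, no minimum fold change, robust estimation, miRNAs mixing 0 with at least 100 counts left out, 1 fit over 36 samples, a replicate block, each sample left out, and for arm ratios minimums of 10 and 1000 counts and a pseudocount of 5. Leaving out both samples that stood apart, keeping identical miRNAs once and following the cluster's median were added after seeing the data.

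Members and lists were chosen with earlier results of these data known. Named miRNAs followed a rule: calls, the 10 largest and 10 smallest fold changes among miRNAs without overlap at a mean of at least 10 CPM (which 1 sample can carry), the 10 most abundant, the leading arms of each list and those with its smallest unadjusted p, miRNAs the study paired with pathway genes in muscle (picked from these samples, so no independent evidence), and opposite arms. The summed precursors, miR-320-3p, the pairs with alternating counts, miR-106b, miR-450, miR-450b, miR-542 and levels in other tissues were chosen after their values were seen.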

Additional observations from a re-analysis of the deposited data

Results flagged for a closer look

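The altitude difference in muscle was tested against the mean altitude difference of the other 5 tissues of the same goats, with the goat as a block, and 16 miRNAs differed (edgeR adjusted p under 0.05). For 15 arms of the DLK1-DIO3 cluster the log2 fold change was lower in muscle. The difference was -5.42 for miR-411a-3p, -4.89 for miR-381-3p, -4.72 for miR-655-3p, -3.99 for miR-154b-5p and -3.95 for miR-410-3p. It was -3.69 for miR-3958-3p, -3.30 for miR-493-5p, -3.13 for miR-380-3p, -3.12 for miR-1185-5p and -3.09 for miR-411a-5p. It was -3.02 for miR-136-3p, -2.89 for miR-412-5p, -2.88 for miR-369-5p, -2.86 for miR-485-5p and -2.32 for miR-3959-5p. Without low-altitude replicate 3 of muscle, miR-3958-3p alone was called, with -2.46 (edgeR adjusted p = 0.0439). The differences that were no longer called were then -2.61 for miR-412-5p, -2.41 for miR-485-5p, -2.32 for miR-1185-5p, -2.31 for miR-410-3p, -2.04 for miR-380-3p, -1.99 for miR-154b-5p and -1.97 for miR-493-5p. They were -1.96 for miR-381-3p, -1.82 for miR-655-3p, -1.76 for miR-369-5p, -1.59 for miR-136-3p, -1.55 for miR-411a-3p, -1.42 for miR-3959-5p and -1.37 for miR-411a-5p. Without high-altitude replicate 1 or 3 the count was 0 by edgeR's quasi-likelihood test, with 71 or 64 at an unadjusted p under 0.05. By the likelihood ratio test on all samples it was 38.

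For miR-184-5p, known from lens and cornea, the test gave a difference of 10.53, a fitted value that depends on the prior count because the low-altitude muscle samples were all at 0. Its muscle counts were 17, 297 and 28 at high altitude, at least 37.6-fold higher against 3 counts per library, or 7.13-fold without high-altitude replicate 2. Without low-altitude replicate 3 the difference was as large, at 10.59, but its edgeR adjusted p was 0.388.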

How the results depend on the processing

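The fold change of miR-409-5p stayed between -6.46 and -6.00 over all alternatives. The count of DE miRNAs was 1 in most, and 30 with DESeq2, 18 with the likelihood ratio test and 5 with the exact test. It was 34 in 1 fit over 36 samples, 4 without both samples that stood apart, and 0 to 5 with each sample left out. Both let-7a arms were among the 4 calls without both samples. For precursors, 0 became 14, 13 and 4 with those 3 tests in the same order, 18 without both samples, and 0 to 3 with each left out. For arm ratios, 0 became 20 without both samples and ranged from 0 to 5 with each left out. Calls against the other tissues, 16 in all, were 38 with the likelihood ratio test, 3 without both samples and 0 to 27 with each left out, and calls against heart were 11 with the likelihood ratio test and 0 to 19 with each left out. Leaving samples out also changes the number of miRNAs tested and the degrees of freedom, and otherwise the cause was not tested.

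Replicate numbers do not pair the goats. Deviations of same-numbered samples correlated by 0.0936, -0.0328 and -0.0576 over 249 miRNAs, and not every sample correlated best with its own number. With the number as a block, edgeR's quasi-likelihood test called 0 miRNAs (53 at an unadjusted p under 0.05) and 0 precursors (33). With limma it was 0 arm ratios (12). With this block miR-409-5p had a log2 fold change of -6.34 (edgeR quasi-likelihood adjusted p = 0.233). Over its alternatives the adjusted p was lowest by DESeq2 (3.29e-38). Among edgeR's fits it ran from 8.5e-10 by the likelihood ratio test to 0.233 with this block. Without the goat block, calls against the other tissues were 17 and against heart 0 (93 at an unadjusted p under 0.05). Log2 fold changes that changed sign with the block were those of let-7a-5p (-12.54), miR-107-3p (-0.98), miR-122-3p (0.16), miR-122-5p (-0.64), miR-146a-3p (-0.08), miR-150-5p (-0.05), miR-194-3p (-0.10), miR-22-3p (-0.01) and miR-34c-3p (-0.05).

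The fold changes of 132 miRNAs and 5 precursors were followed, giving 2652 values, of which 2517 kept direction and side of the threshold, 45 passed it newly, 3 lost it and 87 changed sign. Without both samples that stood apart, an alternative added after seeing the data, the sign changed for let-7a-5p (-16.90), let-7d-5p (-0.18), let-7f-3p (-0.05), miR-1-3p (0.98), miR-100-3p (-0.60), miR-128-3p (-0.50), miR-133a-5p (-0.73), miR-142-3p (0.25), miR-144-3p (-0.09) and miR-144-5p (-0.12). It also changed for miR-150-5p (-0.51), miR-194-3p (-0.85), miR-199b-5p (-0.52), miR-208a-3p (0.06), miR-22-3p (-0.38), miR-26a-3p (-0.06), miR-29a-5p (-0.17), miR-34b-5p (-0.52), miR-379-5p (0.64) and miR-3958-5p (0.12). Fold changes near 0 changed sign with filterByExpr for let-7i-3p (0.03) and miR-107-3p (-0.03), in 1 fit over 36 samples for let-7i-3p (0.01) and miR-378-3p (0.01), and with library totals for miR-107-3p (-0.32) and miR-122-5p (-0.07). That of miR-107-3p was also -0.03 with the 10 most abundant left out of TMM, -0.02 with DESeq2, -0.02 with RLE factors and -0.09 with a mean of at least 10 CPM.

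With each sample left out in turn, sign changes through high-altitude replicate 2 were found in ranges from -17.03 to 1.37 for let-7a-5p, -0.11 to 0.84 for let-7d-5p, -0.54 to 0.64 for miR-100-3p, -0.17 to 0.75 for miR-128-3p, -0.31 to 0.10 for miR-133a-3p and the equal miR-133b-5p, and -0.99 to 2.71 for miR-133a-5p. Further ranges with this sample were -0.65 to 0.07 for miR-142-3p, -0.67 to 0.61 for miR-150-5p, -0.59 to 0.38 for miR-194-3p, -0.99 to 0.02 for miR-208a-3p, -0.32 to 0.26 for miR-22-3p, -0.00 to 0.87 for miR-22-5p, -0.44 to 3.51 for miR-26a-3p, -0.05 to 0.59 for miR-29a-5p, -0.32 to 1.02 for miR-34b-5p and -0.60 to 1.23 for miR-34c-3p. Through low-altitude replicate 3 they were -3.79 to 0.65 for miR-1-3p, -0.01 to 0.32 for miR-196a-5p, -0.36 to 14.36 for miR-199b-5p, -5.12 to 0.03 for miR-379-5p, -2.67 to 0.87 for miR-382-3p and -3.04 to 1.03 for miR-3958-5p. Through the other samples they were -0.24 to 0.00 for let-7g-3p, -0.59 to 0.30 for let-7i-3p, -0.43 to 0.63 for miR-107-3p, -2.0 to 1.70 for miR-122-3p, -0.51 to 1.5 for miR-122-5p, -0.23 to 1.22 for miR-146a-3p, -3.29 to 2.02 for miR-150-3p and -0.53 to 0.17 for miR-194-5p. The rest were -0.60 to 0.08 for miR-21-5p, -2.52 to 4.28 for miR-2284a-5p, -0.22 to 0.02 for miR-378-3p and -0.10 to 0.42 for miR-378-5p. Values beyond 10 in size are fitted against samples all at 0 and are no measure of a fold. The cluster median ran from -4.45 to -1.30, the latter without low-altitude replicate 3.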
